A study of Homo sapiens with 6 samples.

Results

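The genes described here encode intermediate filament proteins that are neither keratins, nuclear lamins nor lens filaments. They are GFAP, DES, VIM and PRPH of type III, and NES, INA, NEFL, NEFM, NEFH and SYNM of type IV. They were taken by name, 10 of the 19821 protein-coding genes of the annotation, and each was extended by 10 kb on either side. The set was selected on earlier results of these data: the fold enrichment at the ends of GFAP and NES, which was among the highest of all genes, led to the family, and the other members were added by name. The values below are therefore a description and carry no test. The libraries came from HCT116, an established human colorectal carcinoma line crosslinked with formaldehyde during exponential growth. AcNEIL1, the acetylated form of the DNA glycosylase NEIL1, which starts the repair of oxidised bases, was pulled down with its bound chromatin by a rabbit antibody made for the purpose, and the DNA was sequenced (ChIP-seq). There were 3 ChIP libraries and 3 libraries of input DNA taken before the pulldown, and each ChIP peak list was made against the input of the same number. The labels name no second genotype, treatment or time, and do not say whether replicates were separate cultures, so the SD over replicates may be technical.

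Intermediate filaments are rope-like polymers of coiled-coil proteins that give a cell its resistance to stretching. Which gene is used depends on the tissue: epithelial cells such as those of the colon build their filaments from keratins, while astrocytes use GFAP, muscle uses desmin (DES), mesenchymal cells use vimentin (VIM) and neurons use neurofilament proteins, alpha-internexin (INA) and peripherin (PRPH). Nestin (NES) and synemin (SYNM) are large partners that join the filaments of other members, nestin in progenitor cells and synemin in muscle and glia. Expression was not measured in this series.

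AcNEIL1 peaks fell on some of these genes and left others empty. GFAP and NES were covered by peaks over most of their length in all 3 replicates. DES and PRPH had peaks at a gene end in all 3, NEFH had one at an end in 2 of 3, and SYNM had scattered peaks inside the gene and none at its ends. VIM, INA, NEFL and NEFM had no peak in the gene or its flanks in any replicate. A gene-end peak here overlaps, by at least 1 bp, the 1000 bp on either side of the first or last base of the gene. Such a peak was found in all 3 replicates at 4 of the 10 genes, and at 9.03% of all protein-coding genes. In at least 2 replicates the count was 5 of 10 against 15.2%. The gene body was touched in all 3 replicates for 6 of the 10 genes and for 20.7% of all genes, and the extended gene held a peak in all 3 for the same 6 genes and for 34.0% of all. No peak in any replicate, with the flanks included, was the state of 4 of the 10 genes and of 43.3% of all. The set was chosen with such results known, so these shares are given side by side and nothing is read from them.

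The promoter sequences show the letters that lie under, or next to, these peaks. RefSeq windows on GRCh38.p14, the build of the peak lists, were matched for 5 of the 10 genes (NES, VIM, PRPH, INA and SYNM), and the 250 bases before the gene start are printed for 3 of them, in lower case with each CpG in capitals, 5′ to 3′ on the gene's strand. PRPH is shown because peaks lay over this window, NES because its wide peaks stopped short of it, and INA because no peak lay near it. The windows are chr12:49294897-49295146 on the plus strand for PRPH, chr1:156677408-156677657 on the minus strand for NES and chr10:103276888-103277137 on the plus strand for INA.
PRPH: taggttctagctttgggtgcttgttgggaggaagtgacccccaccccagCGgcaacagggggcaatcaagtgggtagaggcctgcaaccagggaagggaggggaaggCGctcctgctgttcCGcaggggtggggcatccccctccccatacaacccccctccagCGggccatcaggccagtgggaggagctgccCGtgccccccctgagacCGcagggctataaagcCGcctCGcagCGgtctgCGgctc
NES: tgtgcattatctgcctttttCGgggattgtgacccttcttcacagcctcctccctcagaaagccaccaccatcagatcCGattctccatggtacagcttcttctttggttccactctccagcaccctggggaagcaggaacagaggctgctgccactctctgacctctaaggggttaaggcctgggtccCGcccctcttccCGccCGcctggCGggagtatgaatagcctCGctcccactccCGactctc
INA: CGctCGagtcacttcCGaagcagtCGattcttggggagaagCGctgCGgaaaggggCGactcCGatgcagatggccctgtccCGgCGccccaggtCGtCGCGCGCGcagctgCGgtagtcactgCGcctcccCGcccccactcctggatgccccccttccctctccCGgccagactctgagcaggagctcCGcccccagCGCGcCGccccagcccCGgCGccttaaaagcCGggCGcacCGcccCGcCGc

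The PRPH window held 10 CpG and 66.8% G and C, and the NES window 8 CpG and 58% G and C. The INA window held 30 CpG and 72.8% G and C. Of the windows not printed, that of VIM had 8 CpG and that of SYNM 34. The median over 13792 protein-coding genes with such a window was 17 CpG, and 15.8% of them had at least as many as INA, against 68.9% for PRPH and 72.8% for NES and VIM. A peak overlapped the PRPH window by 44, 250 and 0 bp in replicates 1, 2 and 3. It was thus covered whole in replicate 2, touched in replicate 1 and missed in replicate 3. Overlap in at least 2 replicates was found for 3.47% of the windows of all genes and for none of the other 4 members with a window. CpG-rich windows were thus among those without a peak, INA and SYNM, but so was the CpG-poor window of VIM.

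The 3 peak lists differed in length more than in depth. After the duplicate filter the ChIP libraries held 28814429 to 35222701 tags and the inputs 32877739 to 37772127. Chromosomes 1 to 22 and X carried 39789 peaks in replicate 1, 60075 in replicate 2 and 49609 in replicate 3. Replicate 2 had the fewest ChIP tags, the deepest input and the most peaks. The extended genes held 28, 41 and 35 peaks, a mean of 34.7 ± 6.51 (SD, n = 3). Of the 104 peaks in all, 36 were at a gene end, 36 elsewhere in a body and 32 in a flank, and 27 (26.0%) also overlapped a neighbouring gene.

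**Figure D1:**
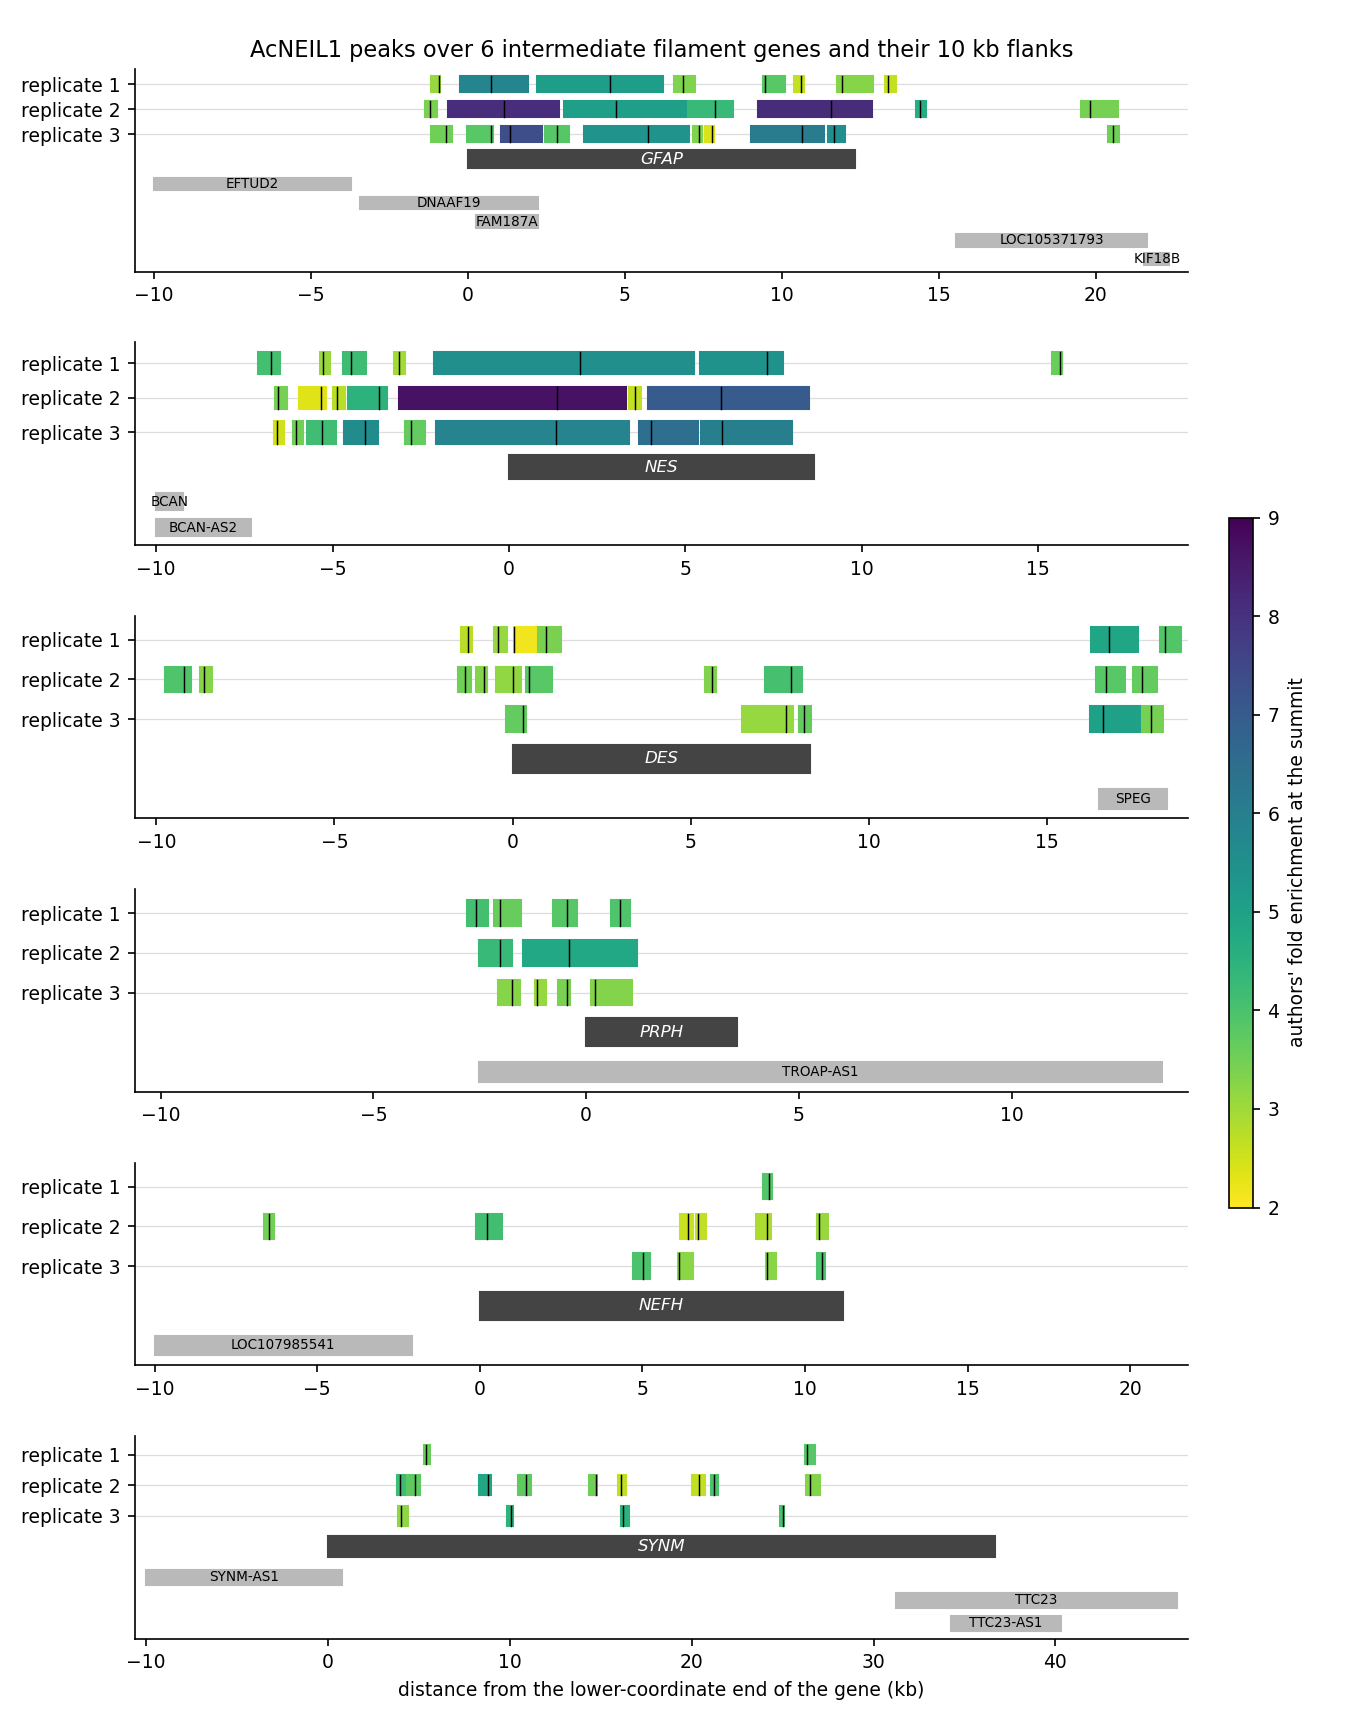
Peaks of each replicate (bars coloured by the authors' fold enrichment, black line at the summit) over the 6 genes that had any, against the distance in kb from the lower-coordinate end of the gene; dark bars are the genes and grey bars the neighbours within 10 kb. Peaks cover most of GFAP and NES, least at GFAP in replicate 1 (66.6% of the body). They cluster at 1 end of PRPH and are scattered in NEFH and SYNM.

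GFAP encodes the filament protein of astrocytes and lies on chromosome 17 at 44903159 to 44915500 (hg38). It held 8, 7 and 10 peaks with its flanks. They covered 66.6%, 91.7% and 78.0% of the gene body (mean 78.8% ± 12.6, SD, n = 3), and 53.9% of the body was covered in all 3 at once. The lowest of these values, that of replicate 1, still meant peaks over more of the gene than gaps. The widest peak was 4017, 3879 and 3324 bp long. In each replicate it lay inside the gene, with summits 4525, 4725 and 5740 bp from the lower end. By width these peaks ranked 73rd, 918th and 257th in their lists, so they belonged to the widest 0.183%, 1.53% and 0.518%.

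The central peak had folds of 5.13, 5.07 and 5.41, and the highest fold in each replicate lay outside it. The authors' fold enrichment, the summit pileup over the local background with 1 added to each, was 5.81 at the lower end in replicate 1, where 32 tags were piled up. Replicate 2 had 8.10 at the lower end, with 38 tags, and 8.15 at the higher end, with 47 tags. In replicate 3 the peak of fold 7.34 and 33.4 tags began 1057 bp inside the lower end, just past the end window, and the higher end had 6.12. The strongest gene-end peak was thus 5.81, 8.15 and 6.12, a mean of 6.69 ± 1.27 (SD, n = 3), and 5.96 without replicate 2. The replicates did not place it at the same end: in replicate 1 it was at the lower end and in replicates 2 and 3 at the higher end, where replicate 1 had only 3.26.

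The peaks of GFAP formed 5 merged regions, of which 2 were present in all 3 replicates. The first ran from 44901783 to 44911621 and began 1376 bp before the gene. It also overlapped DNAAF19, a dynein assembly factor gene that shares 2232 bp with GFAP, and FAM187A, which lies wholly inside that overlap. Of the 25 GFAP peaks, 8 overlapped DNAAF19 and 5 overlapped FAM187A, and a peak in the shared stretch cannot be assigned to any 1 of these genes. The second shared region, from 44912176 to 44916064, reached 564 bp past the higher end and touched no neighbour. Farther out, a region from 44922704 to 44923902 lay in the long non-coding RNA gene LOC105371793 and was seen in replicates 2 and 3, with folds of 3.47 and 3.51. EFTUD2 and KIF18B, the other genes within 10 kb, were touched by no GFAP peak.

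DES encodes desmin, the filament of muscle cells, and lies on chromosome 2 at 219418377 to 219426734. It held 6, 10 and 5 peaks with its flanks. The strongest peak at its ends was weaker and narrower than that of GFAP in each replicate. Its fold was 3.42, 4.07 and 3.68, a mean of 3.72 ± 0.330 (SD, n = 3). The 3 values were close together, and all were under the lowest GFAP value. A region from 219417841 to 219419733, across the lower end, was present in all 3 replicates with folds of 3.42, 3.81 and 3.68. A region at the higher end, from 219424829 to 219426758, was present in replicates 2 and 3 only, with folds of 4.07 and 3.66. In replicate 1 the nearest peak to that end was 7001 bp away. When only peaks with a −log10 q of 5 or more were used, DES no longer had a gene-end peak in at least 2 replicates.

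A neighbour of DES also carried peaks in all 3 replicates. SPEG, a kinase gene of striated muscle, starts 8108 bp beyond the higher end of DES, and a region from 219434581 to 219437131 lay across its start. Its fold was 4.87, 3.83 and 4.99, a mean of 4.56 ± 0.638 (SD, n = 3), and the summits of the 3 replicates lay within 158 bp of each other. All 6 peaks that DES shared with a neighbour were in this region, 2 in each replicate. In replicates 1 and 3 the SPEG peak was stronger than any peak at an end of DES, and in replicate 2 it was not.

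PRPH encodes peripherin, a filament of peripheral neurons, and lies on chromosome 12 at 49295147 to 49298686, on the plus strand. It held 4, 2 and 4 peaks, which lay before the start or in the first 1195 bp of the gene, and none lay at its 3′ end. The strongest gene-end fold was 3.93, 4.79 and 3.40 (mean 4.04 ± 0.701, SD, n = 3). In replicate 1 it belonged to a peak inside the gene, in replicate 2 to a peak across the start, and in replicate 3 to a peak before the start. A region from 49293664 to 49296342 was a single peak of 2679 bp in replicate 2 and split into 2 and 3 peaks in replicates 1 and 3. The nearest peak edge was 207, 0 and 113 bp from the gene start, so the start itself was covered in replicate 2 only. Before the start, the highest pileup was 29, 36 and 29.6 tags, above the list medians of 20, 21 and 19.1. The local background, by which the fold is divided, was also above the list medians under the peaks with this pileup. It was 6.80, 7.63 and 8.00 tags there, against 4.94, 5.34 and 4.48. Its median over all PRPH peaks was 4.74, 6.87 and 6.61 tags, which in replicate 1 was below the list median.

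A second PRPH region, from 49292344 to 49293622, ended 1524 bp before the gene and had folds of 4.08, 4.29 and 3.27. All 10 peaks of PRPH also overlapped TROAP-AS1, a long non-coding RNA gene whose span runs over the whole of PRPH. Peaks at this gene can therefore not be assigned to PRPH alone. Body coverage was 12.5%, 33.8% and 27.4%, and the part covered in all 3 replicates was 12.5%.

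VIM encodes vimentin, the filament of mesenchymal cells, and lies on chromosome 10 at 17228241 to 17237593. It had no peak in the gene or its flanks in any replicate. The nearest peak was 34.8, 192 and 509 kb away in replicates 1, 2 and 3. The stretch free of peaks in all 3 lists ran from 17193432 to 17429262, 236 kb in which VIM was the only protein-coding gene that lay whole. Its antisense neighbour VIM-AS1, which overlaps the start of VIM, lay in the same stretch.

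NES encodes nestin, the large filament protein of neural and muscle progenitors, and lies on chromosome 1 at 156668763 to 156677407, on the minus strand. It held 7, 7 and 8 peaks with its flanks. They covered 87.7%, 95.1% and 88.4% of its body, a mean of 90.4% ± 4.08 (SD, n = 3), the highest of the 10 genes. The part covered in all 3 replicates was 80.9% of the body. The 3 replicates were close, and replicate 2, the longest list, was the highest. The widest NES peak measured 7371, 6439 and 5466 bp and lay across the 3′ end in each case. It was the 8th widest of 39789 peaks in replicate 1, the 250th widest in replicate 2 and the 44th widest in replicate 3. Its pileup was 42, 54 and 45.8 tags, and its fold 5.52, 8.68 and 5.85.

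The pattern at NES was lopsided with respect to transcription. At the 3′ end the gene's last base was covered in every replicate. The peaks across it reached down to 156666637, 156665637 and 156666691 in replicates 1, 2 and 3. Merged over the replicates, the large region ran from 156665492 to 156677260, 3271 bp past the gene. Its outermost part was a separate peak of replicate 1 only, with fold 2.97. A second region in all 3 replicates, from 156662638 to 156665297, continued the series, with folds of 4.18, 4.51 and 5.61, and another, from 156661642 to 156662482, had 4.08, 3.47 and 2.51. At the 5′ end the peaks stopped 886, 147 and 629 bp inside the gene, and the promoter window printed above was free of peaks in all 3 replicates. The peaks that reached within 1000 bp of the start had folds of 5.42, 7.01 and 6.0, and those across the 3′ end 5.52, 8.68 and 5.85. Each fold was measured at the summit, and all of these summits lay more than 1000 bp inside the gene. The strongest gene-end fold was 5.52, 8.68 and 6.0 (mean 6.73 ± 1.70, SD, n = 3), and 5.76 without replicate 2. When the summit, and not the edge, of a peak had to fall in the end window, NES was no longer counted, because the summits of its wide peaks lay farther inside. No NES peak overlapped a neighbour; the brevican gene BCAN ended 9234 bp from NES and BCAN-AS2 7322 bp from it.

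SYNM encodes synemin and lies on chromosome 15 at 99105080 to 99141767, on the plus strand. With 36688 bp it is the longest of the 10 genes. It held 2, 9 and 4 peaks in replicates 1, 2 and 3, all inside the gene, none in a flank and none at an end. The nearest peak to the start was 5306, 3821 and 3885 bp away. The peaks fell into 11 regions, of which 3 were seen in 2 replicates, 8 in 1 and none in all 3. In the first of these 3 regions, from 99108901 to 99110140, the strongest summits of replicates 2 and 3 lay 11 bp apart, with folds of 4.21 and 3.19. The highest fold in SYNM was 3.84, 4.83 and 4.51, close to that in PRPH in replicates 1 and 2 and above it in replicate 3, but no base was covered in all 3 replicates. These SYNM peaks had 15, 19 and 18.1 tags over a local background of 3.17, 3.14 and 3.24 tags. The lowest background in the full lists was 3.17, 3.14 and 3.10 tags. The PRPH peaks of highest fold had 22, 33 and 29.6 tags over 4.63, 6.10 and 8.00. TTC23, which overlaps the 3′ end, SYNM-AS1 and TTC23-AS1 shared none of the peaks.

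NEFH encodes the heavy neurofilament subunit, which sets the spacing of filaments in axons, and lies on chromosome 22 at 29480218 to 29491390. It held 1, 6 and 4 peaks with its flanks. One of them, in the lower flank in replicate 2 (29473576 to 29473896, fold 3.48), also overlapped the long non-coding RNA gene LOC107985541. A gene-end peak was found in replicate 2 at both ends (fold 4.12 at the lower and 3.09 at the higher end) and in replicate 3 at the higher end (3.97), and none in replicate 1. The higher-end peaks of replicates 2 and 3 formed a region from 29490573 to 29490922. The only region seen in all 3 replicates was inside the gene, from 29488707 to 29489324, with folds of 3.86, 2.85 and 3.25. Its 3 summits lay within 53 bp of each other, although the pileup of 16, 14 and 15.3 tags was below the list medians. Body coverage was 2.40%, 19.7% and 13.8%, which did not differ beyond this spread from SYNM (2.27%, 14.3% and 4.18%). Within each replicate NEFH was above SYNM, though only slightly in replicate 1.

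NEFL and NEFM encode the light and medium subunits that assemble with NEFH, and are neighbours on chromosome 8, at 24950955 to 24956612 and 24913761 to 24919093. Neither had a peak, and their values are not independent, since both lay in the same stretch free of peaks. It measured 1486, 2285 and 1486 kb in replicates 1, 2 and 3. In all 3 lists together it ran from 23753934 to 25193253 and held 6 protein-coding genes whole, the others being STC1, ADAM28, ADAMDEC1 and ADAM7. The nearest peak to NEFL was 237, 1083 and 237 kb away. INA, the gene of alpha-internexin, on chromosome 10 at 103277138 to 103290346, had no peak either, and the nearest was 164, 74.7 and 44.4 kb away. Its stretch free of peaks in all 3 lists was shorter, 132 kb from 103232741 to 103364799, with RPEL1 and PCGF6 inside.

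**Figure D2:**
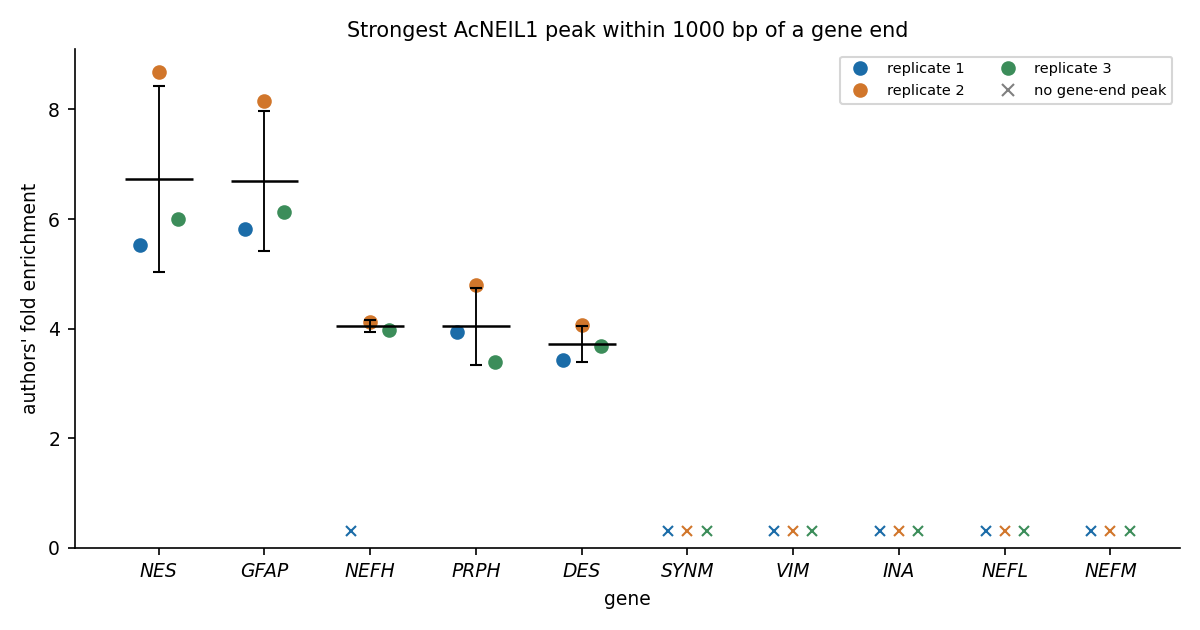
Authors' fold enrichment of the strongest peak within 1000 bp of a gene end (vertical axis) for each gene and replicate; bars are means ± SD over the replicates with such a peak (n = 3, or 2 for NEFH), and crosses mark replicates without one. NES and GFAP lie between 5.52 and 8.68, above all values of NEFH, PRPH and DES, which reach at most 4.79. The set was chosen on the end fold of NES and GFAP.

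Ordered by the mean fold at a gene end, NES (6.73) and GFAP (6.69) came first, above PRPH (4.04), NEFH (4.05 over replicates 2 and 3 only) and DES (3.72). Over replicates 2 and 3 PRPH had 4.09, so that no order of NEFH and PRPH by fold can be given. Their pileups differed, with 23 and 15.3 tags at NEFH and 33 and 29.6 at PRPH in replicates 2 and 3. The NEFH peak of replicate 3 had a local background of 3.10 tags, the lowest in that list. NES and GFAP did not differ beyond their spread. Every NES and GFAP value was above every value of the other 3 genes, whose ranges overlapped. NES and GFAP led to the set through this same fold, so their lead was built into the choice and is not a separate result. Replicate 2 gave the highest value for each of the 5 genes. For comparison, the median fold of all peaks was 3.42, 3.40 and 3.61 in replicates 1, 2 and 3, so that several of the DES and PRPH values were close to the fold of an average peak. The median fold over the 104 peaks was 3.71, 3.69 and 3.68.

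**Figure D3:**
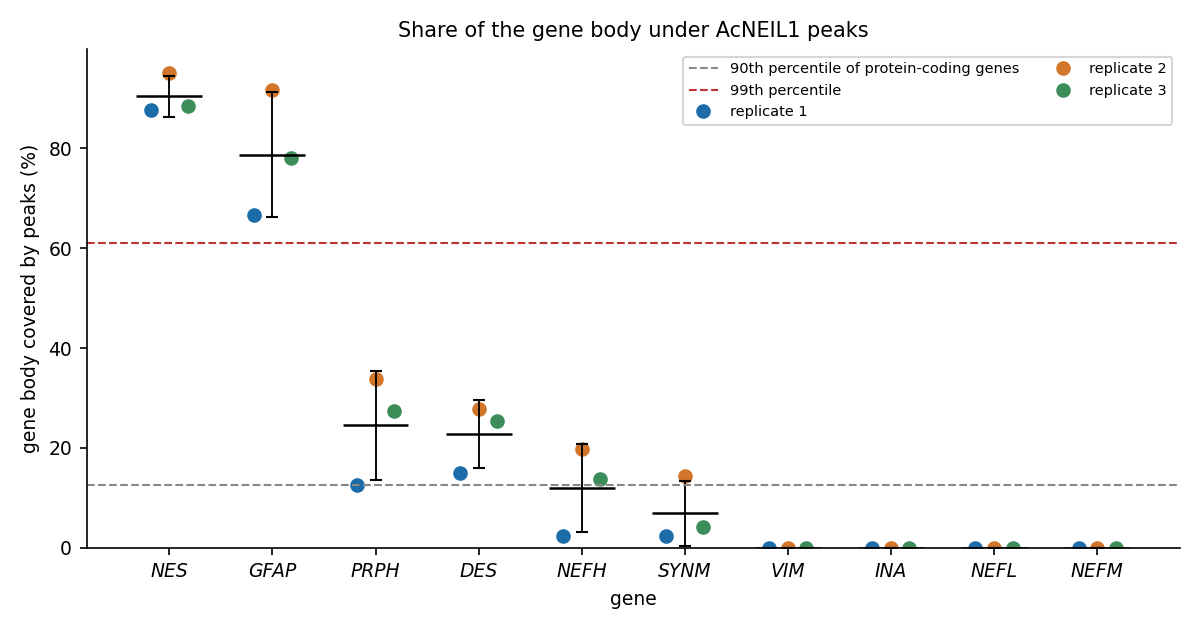
Percent of each gene body covered by peaks in each replicate, with means ± SD (n = 3); dashed lines show the 90th and 99th percentiles, 12.5% and 61.1%, of the mean coverage over 19821 protein-coding genes. All values of NES and GFAP lie above the upper line.

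Coverage of the body set the genes apart more than fold did. Over all protein-coding genes the mean coverage of the body had a median of 0%, a 90th percentile of 12.5% and a 99th of 61.1%. At least as much coverage as in NES was found in 27 genes (0.136%), and as much as in GFAP in 62 (0.313%), each count with the gene itself included. For PRPH (24.6% ± 11.0) and DES (22.8% ± 6.78) the shares of genes were 5.24% and 5.70%, and for NEFH (12% ± 8.79) and SYNM (6.93% ± 6.48; SD, n = 3 for each) 10.3% and 14.6%. These shares were not matched for gene length, which is the divisor of a percent of the body. The median length of protein-coding genes was 24482 bp, and all members but SYNM were shorter. NES measured 8645 bp, GFAP 12342 bp, DES 8358 bp and PRPH 3540 bp. Without replicate 2, coverage of the extended gene went from 4.74% to 2.91% at NEFH and from 4.48% to 2.09% at SYNM. NES and GFAP did not overlap with the other genes in any replicate. Between NES and GFAP the ranges over replicates overlapped, at 87.7% to 95.1% and 66.6% to 91.7%. Within each replicate NES was above GFAP, at 87.7% against 66.6%, 95.1% against 91.7% and 88.4% against 78.0%. Of the bases covered in any replicate in the extended gene, 64.0% were covered in all 3 at NES and 43.9% at GFAP, against 26.6% at PRPH, 14.8% at DES, 4.34% at NEFH and 0% at SYNM.

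**Figure D4:**
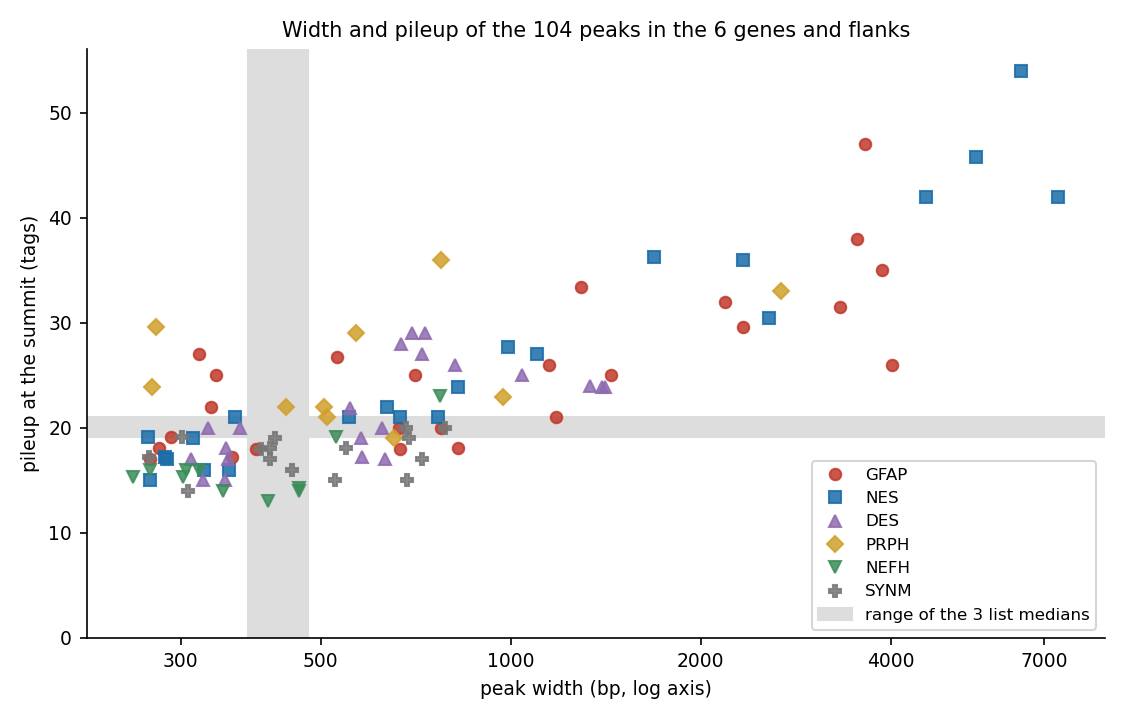
Width (log axis, bp) against summit pileup (tags) for the 104 peaks; symbols mark the gene, and grey bands span the medians of the 3 full lists, 384 to 478 bp and 19.1 to 21 tags. All peaks wider than the 2679 bp of the widest PRPH peak belong to NES or GFAP.

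In each replicate the widest of these peaks was also the highest, and it lay at NES. The highest pileup was 42, 54 and 45.8 tags at NES and 32, 47 and 33.4 at GFAP, while at SYNM it was 15, 20 and 19.1. The pileup counts extended tags, after scaling of the larger library of a pair, and replicate 3 is the one in which the ChIP library was scaled down. The median width over the 104 peaks was 574, 685 and 549 bp, against 401, 478 and 384 bp in the full lists. The median pileup was 20.5, 20 and 20.0 tags against 20, 21 and 19.1, so the set's median was wider in all 3 replicates, slightly higher in replicates 1 and 3 and lower in replicate 2. A −log10 q of 5 or more was reached by 11, 20 and 13 of the peaks, or 39.3%, 48.8% and 37.1%, and by 28.6%, 40.9% and 28.8% of all peaks.

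**Figure D5:**
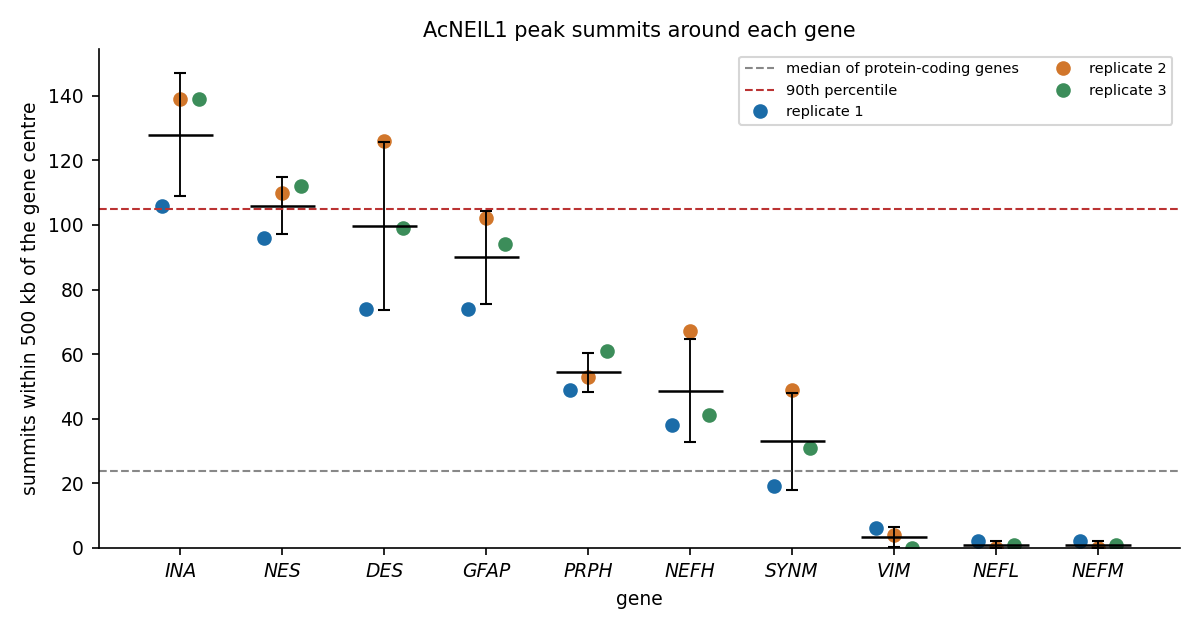
Number of peak summits within 500 kb of the centre of each gene in each replicate, with means ± SD (n = 3); dashed lines show the median (23.7) and the 90th percentile (105) of the mean over 19821 protein-coding genes. INA has the highest count of the 10 genes although it has no peak of its own, and VIM, NEFL and NEFM have the lowest.

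The surroundings of the genes differed as much as the genes. Within 500 kb of the gene centre the lists held 90 ± 14.4 summits at GFAP, 106 ± 8.72 at NES and 99.7 ± 26.0 at DES (SD, n = 3 for each). These counts include the peaks of the genes themselves. The median over all protein-coding genes was 23.7. NEFL and NEFM had 1 ± 1 and VIM 3.33 ± 3.06, while PRPH (54.3 ± 6.11), NEFH (48.7 ± 15.9) and SYNM (33 ± 15.1; SD, n = 3 for each) lay in between. INA did not follow this order: its surroundings held 106, 139 and 139 summits, more than those of any other member on average (128 ± 19.1; SD, n = 3), and none within 44.4 kb of it. The part of regional peak density in the presence of peaks at these genes was not tested.

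The 10 kb limit on the flanks had little bearing on the count of genes with a peak. The nearest peaks left out were those of DES, 10.2 and 10.4 kb away in replicates 3 and 2, with folds of 2.66 and 5.47. The farthest peak let in was also at DES, in replicate 1, 9.82 kb away with fold 3.91. With no flank, or with 5 or 20 kb, the same 6 genes had a peak in all 3 replicates, while the share of all protein-coding genes was 20.7%, 28.3% and 41.1%.

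Other genes of the filament system, taken as lists, are given by counts, to be read beside the 9.03% of all genes with a gene-end peak in all 3 replicates and the 15.2% with one in at least 2. Of the 5 lamin and lens filament genes, LMNA, LMNB1, LMNB2, BFSP1 and BFSP2, none had a gene-end peak in any replicate. Of 4 keratin genes of simple epithelia, the filaments that colon cells use, KRT18 and KRT19 had a gene-end peak in 1 replicate each, with folds of 2.90 and 2.96, and KRT8 and KRT20 had none. Of 10 genes of proteins that link or guard filaments, none had a gene-end peak in all 3 replicates and 2 had one in 2. These were EPPK1, the gene of epiplakin, with 6.15 and 7.37 in replicates 2 and 3, and CRYAB, the gene of a desmin chaperone, with 4.10 and 2.73 in replicates 1 and 3. In replicate 3 the EPPK1 value was above those of GFAP (6.12) and NES (6.0), and in replicate 2 below both; DST had a single end peak, in replicate 2 (3.50). A peak in the extended gene in all 3 replicates was found at 3 of the 5, 3 of the 4 and 7 of the 10 genes of these lists, and at 34.0% of all genes. The median coverage of the body was 1.44%, 0% and 0.469% in the 3 lists and 9.45% over the 10 members. These medians were not matched for gene length, and the lists hold genes far longer than any member, such as DST and MACF1. The highest mean coverage of single list genes was 15.0% at KRT8 and 12.2% at PLEC, above that of NEFH (12%) and below those of PRPH (24.6%) and DES (22.8%).

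Markers of the cell types in which the members are used were counted in the same way, against the same 9.03% and 15.2% of all genes. Of 8 neuron markers, 2 had a gene-end peak in all 3 replicates: SYP, the gene of synaptophysin, with 2.56, 3.63 and 3.74, and ELAVL3, the gene of a neuronal RNA-binding protein, with 3.17, 3.97 and 2.81. Of 8 mesenchyme and muscle markers 1 did, the muscle transcription factor gene MYOG, with 3.76, 4.24 and 2.69. In 2 of 3 replicates such a peak was found at TUBB3, the gene of a neuronal tubulin (3.28 and 3.58 in replicates 2 and 3), and at TAGLN, a smooth muscle gene (3.71 and 4.36 in replicates 1 and 2). A peak in 1 replicate only, replicate 2, was found at the muscle transcription factor gene MYOD1 (4.68) and the neuronal gene RBFOX3 (2.51). Of 8 markers of astrocytes and neural progenitors none had a gene-end peak in all 3 replicates, and 1, ALDH1L1, had one in 2, with 4.10 and 3.67 in replicates 2 and 3. The folds of these genes were all below those of GFAP and NES in the same replicate, but GFAP and NES had led to the set by their high end fold. Median coverage of the body, again not matched for gene length, was 0% over the astrocyte and progenitor markers. It was 1.16% over the neuron markers and 0.257% over the mesenchyme and muscle markers. The mean coverage of TAGLN (31.4%) and MYOG (27.0%) was above that of PRPH (24.6%) and DES (22.8%). RBFOX3 (15.8%) was above NEFH (12%), and all other markers were below SYNM (6.93%).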

How the data were processed

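The 3 ChIP peak lists were analysed, and the 3 inputs entered only as their controls; groups and replicate numbers come from the sample titles. Peaks were called by the authors with MACS 2.1.1.20160309 on hg38, per the file headers, for each replicate alone, at a q-value cutoff of 0.05. The submitters' processing notes name Trim Galore, cutadapt and Bowtie2 without versions, and hg19 beside hg38; positions here follow the headers. The deposited signal is the pileup at the summit, in tags extended to 268, 294 and 249 bp, as those headers state. The −log10 values deposited belong to the caller's p and q, and the deposited fold, a ratio, is the authors' own value per peak, used to describe peaks within a list. The local background was recovered as the pileup plus 1, divided by the fold, minus 1.

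Genes came from a RefSeq table of GRCh38.p14, with rows on scaffolds dropped; it gives no exons, and strand was known only for genes with a RefSeq promoter window. Positions are 1-based, and exon, intron and UTR positions were not analysed here. Overlaps were computed with Python 3.11.15 and pandas 2.3.3 and tested on simulated data. The members and lists were chosen with earlier results of these data known. All 10 members are named whatever their values, with the neighbours that share a peak and list genes with a gene-end peak in all 3 replicates. List genes with one in 1 or 2 replicates, and those named for their coverage, were named after their values were seen. The lists hold only peaks past the cutoff, so no peak means none that passed at this depth. Alternatives were other windows and flanks, stricter or equally many peaks, summits in place of edges, and leaving out each replicate.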

Additional observations from a re-analysis of the deposited data

How the results depend on the processing

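The counts over the 10 genes kept within 1.5 times of their value under 33 of 36 alternatives. With peaks of −log10 q of 5 or more, 3 genes (NES, PRPH and GFAP) had a gene-end peak in at least 2 replicates in place of 5, against 7.55% of all genes, and the extended genes held a mean of 14.7 peaks in place of 34.7. With no flank they held 21. Leaving out each replicate gave 4 to 5 genes with a gene-end peak in both others (9.90% to 12.5% of all genes), 6 with a peak in the extended gene (36.1% to 39.3%), and 31.5 to 38 peaks. The mean folds of single genes moved by less than 1 SD under 34 of 34 alternatives. NES with the summit in the window and DES with the stricter q are not among these, since not every replicate had a gene-end peak there. Coverage of the 6 genes with peaks moved by less than 1 SD under 34 of 48. The other 14 were other flanks, which change the length measured, or the stricter q. With 3 replicates, leaving out 1 cannot move a mean by 1 SD, so those alternatives could not count as moved. No paired analysis was possible because the inputs, which share numbers with the ChIP libraries, enter only through the peak calling. Only peaks past the cutoff are listed, so at this depth absence of a peak cannot be told from a signal under it.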

Other observations

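The promoter windows of the whole gene table give the members' CpG counts a frame. The 203 windows of 250 bases with a peak in all 3 replicates had a median of 8 CpG, and the 12787 without a peak in any had 18, while G and C made up 64% and 62%. The PRPH window, with 10 CpG, was overlapped in 2 replicates only. It belonged to the 478 windows with a peak in at least 2 replicates, whose median was 9 CpG. INA and SYNM, with 30 and 34, lay above the median of the windows without a peak. VIM and NES, with 8 each and no peak in the window, did not follow that division. No test was made, since neighbouring windows can share a peak.

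Of the PRPH peaks that reached within 1000 bp of the gene start and had their summit before it, the highest had its summit at the same base, 49294700, in replicates 1 and 3, and at 49294734 in replicate 2. These summits lay within 34 bp, in peaks of 569, 2679 and 274 bp in replicates 1, 2 and 3. In replicate 2 a peak farther out, with its summit at 49293125, had a higher pileup, 36 against 33 tags.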
